A study of Mus musculus with 47 samples.

Results

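Basal and luminal mammary epithelial cells were compared at lactation day 10 (L10), the later of the 2 lactation time points of a series that follows the mouse mammary gland through the reproductive cycle. The comparison rests on 5 of the 46 RNA-seq libraries with values, 2 basal (replicates 5 and 6) and 3 luminal (replicates 4, 5 and 6), which were chosen by their labels alone. All mice were females of the inbred strain FVB/N, no allele or treatment is named in the labels, and glands of several mice were pooled for a sort. Per the study's methods the breeding females were mated at 8 weeks of age. Cells negative for blood, endothelial and stromal surface antigens were separated by flow cytometry into luminal cells (CD24 positive, CD29 low) and basal cells (CD24 positive, CD29 high). The basal and luminal libraries of replicate 5 came from the same sort, as did those of replicate 6, whereas the sort of replicate 4 has a luminal library only. All 5 libraries shared a sequencing lane and an RNA amplification batch. The 2 reference groups are lactation day 3 (L3, 3 basal and 3 luminal libraries, same amplification batch, different lane) and the never-pregnant glands of 10-week-old (W10) and 4-month-old (M4) mice, with 3 basal and 3 luminal libraries each. By the sort dates in the labels, the L3 and L10 libraries of replicates 4 and 5 were sorted on the same days.

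The milk-producing gland is built of a bilayer. Luminal cells face the lumen, where under prolactin, its receptor and the transcription factor STAT5 they make milk proteins, lactose and fat droplets. Basal cells, most of them myoepithelial, lie between the luminal cells and the basement membrane and carry the contractile proteins of smooth muscle, with which they squeeze milk out when oxytocin arrives. The comparison asks which genes separate the 2 layers when milk is being made, and what of this separation is found at L3 and before any pregnancy.

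The luminal libraries held 7777828, 20023054 and 17457370 reads on genes for replicates 4, 5 and 6, and the basal libraries 13128473 and 13779302 for replicates 5 and 6. Values are in CPM, the reads of a gene scaled to a common effective library size, and 3 reads, the smallest amount taken as measurable, were worth between 0.217 and 0.399 CPM. The floor takes in counting error alone, since PCR copies are not marked. Among the genes with values, *Csn2*, which encodes beta-casein, took the most reads in each luminal library (9.59, 15.3 and 17.3%), and the mitochondrial *mt-Co1* did so in both basal libraries (2.00 and 2.43%). Across genes, which are not independent replicates, the correlation of log2(CPM + 1) was 0.928 to 0.950 between luminal libraries and 0.935 between the basal ones. Between a luminal and a basal library it was 0.740 to 0.837, and the highest of these values was that of the 2 libraries of the replicate 5 sort.

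The genes used for the sort separated the libraries as labelled. *Cd24a*, which encodes CD24, was at 1075, 1233 and 1783 CPM in luminal replicates 4, 5 and 6 and at 178 and 99.2 CPM in basal replicates 5 and 6. *Itgb1*, the gene of CD29, was at 214, 367 and 268 CPM in luminal and 828 and 946 CPM in basal libraries. Both antigens defined the gates, so their difference is not a finding. Of the antigens of the negative selection, *Pdgfra* was at 0.931, 2.25 and 7.43 CPM in luminal and 4.98 and 1.04 CPM in basal libraries, and *Ptprc* at 1.60, 5.07 and 0.345 and 4.37 and 1.33 CPM. *Pecam1*, the gene of the endothelial antigen CD31, was not low in every library, with 13.0, 117 and 19.4 CPM in luminal and 241 and 122 CPM in basal libraries. *Ly6c1* was at 6.92, 13.0 and 13.6 and 43.9 and 30.8 CPM, and *Itgam* at 0.665, 8.12 and 3.45 and 6.20 and 0.095 CPM, where 68.7% of the *Itgam* exon bases are shared with another gene.

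Of 16 genes of luminal identity, 14 were called higher in luminal cells, and of 18 genes of basal identity, 14 were called higher in basal cells. A call required a fold change of at least 2 and an adjusted p (limma, Benjamini-Hochberg over all 17078 genes) under 0.01. Of all genes, 13.8% were called higher in basal cells (2354 genes) and 10.9% in luminal cells (1863 genes), 24.7% in either direction, so that 55.8% of the calls were basal. Caseins, *Wap*, *Lalba* and *Glycam1* take up a large share of the luminal reads. With these genes removed and each library rescaled to the sum of the rest, the median over all genes moved by -0.21 and the calls were 1710 basal and 2657 luminal (39.2% basal). Without basal replicate 6, which leaves a single basal library that is assumed to vary like the other groups, they were 1557 and 989. Fold changes are differences of mean log2(CPM + 1), basal minus luminal, a scale on which the change of a gene with few reads comes out too small. Luminal identity genes had a median log2 fold change of -4.25 and basal identity genes of 3.83, against -0.02 over all genes, and no member of either list was called, or reached an unadjusted p under 0.05, in the opposite direction by limma (0 calls by edgeR). *Epcam*, an epithelial adhesion molecule, was at 1163, 1555 and 1336 CPM in luminal and 89.8 and 21.4 CPM in basal libraries, a log2 fold change of -4.90 ± 0.49 (SE, adjusted p = 8.1e-10). *Snai2*, a transcription factor of basal cells, was at 2.26, 11.0 and 10.3 CPM in luminal and 284 and 389.7 CPM in basal libraries, a log2 fold change of 5.45 ± 0.57 (SE, adjusted p = 1.7e-09). Neither gene overlapped between the cell types. The tight junction genes *Cldn7* (-5.26) and *Cldn3* (-5.15) had the largest luminal differences of the identity lists, and *Mef2c* (6.33), a muscle transcription factor, the largest basal one. *Krt19*, the keratin with the most reads among the luminal identity genes, was not called (-1.50 ± 0.61 SE, adjusted p = 0.05), and both basal libraries held it (513 and 403 CPM against 1510.3, 1233 and 1137). *Prom1* was not called either (-1.45 ± 0.70 SE, adjusted p = 0.11). Each call was also tried with every L10 library left out in turn, with edgeR, with a pseudocount of 0.1, with the milk genes removed and with median-ratio scaling. Where one of these ended a call below, the gene is listed with the library or setting and the largest adjusted p. The called identity genes named so far kept their calls in all of these settings. A fit to the 5 L10 libraries alone, which estimates the spread from these only, called 397 basal and 159 luminal genes and ended 105 of the 162 L10 calls of genes named here, those of *Cldn7* (adjusted p = 0.0125) and *Cldn3* (0.0182) included. The losses listed for single genes do not cover this fit.

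**Figure D1:**
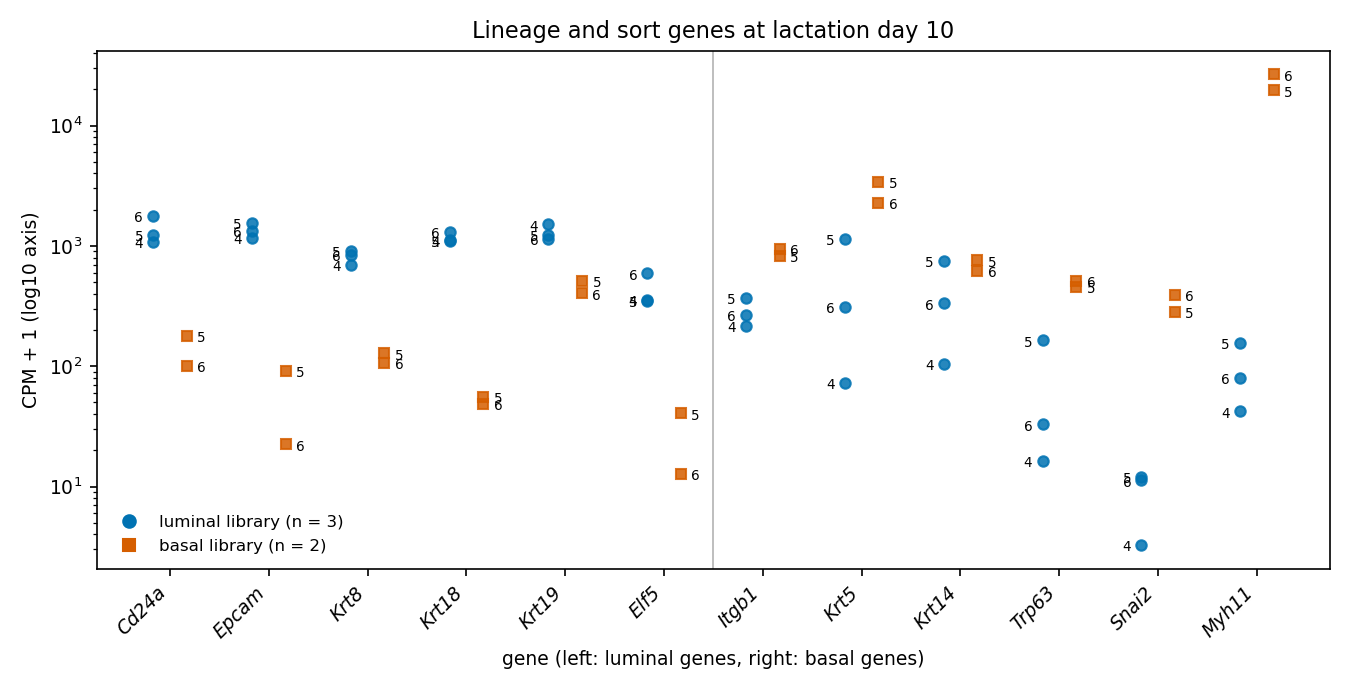
Levels of 12 lineage and sort genes in the 5 L10 libraries, on a log10 axis of CPM + 1. Points are single libraries, circles luminal and squares basal, and the number beside each point is the replicate. The genes separate the cell types in all libraries except for *Krt14*, of which luminal replicate 5 held 745 CPM and the basal libraries 756 and 617 CPM.

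Luminal replicate 5 stood apart in its basal keratins. *Krt5*, a keratin of the basal layer, was at 71.2, 1143 and 309.7 CPM in luminal and 3417 and 2264 CPM in basal libraries. *Krt14*, its partner, was at 104, 745 and 331 CPM in luminal and 756 and 617 CPM in basal libraries. Luminal replicate 5 thus held as much *Krt14* as the basal cells, and the groups overlapped. *Trp63*, the transcription factor p63 of basal cells, was at 15.4, 163 and 31.9 and 457 and 513 CPM, again with the highest luminal value in replicate 5. *Krt5* (3.24 ± 0.89 SE, adjusted p = 0.0038) and *Trp63* (3.44 ± 0.76 SE, adjusted p = 0.00042) were called, *Krt14* (1.21 ± 0.72 SE, adjusted p = 0.2) and *Krt17* (2.29 ± 0.74 SE, adjusted p = 0.014, and adjusted p = 0.00932 with the sort as a block and 0.004 without luminal replicate 5) were not. The desmosome gene *Dsp* had its highest value of all 5 libraries in luminal replicate 5 (216, 1634 and 696 CPM against 783 and 824 CPM in basal cells), as did the connexin *Gja1* (23.0, 185 and 38.4 against 96.2 and 85.1 CPM). *Acta2* and *Myh11*, genes of the contractile apparatus, also had their highest luminal value in replicate 5, at smaller shares of the basal level. In luminal replicate 5 *Acta2* was at 0.856% and *Myh11* at 0.796% of the basal library of the same sort, and *Krt5* was at 33.4% and *Krt14* at 98.5%. Without luminal replicate 5, 2366 genes were called higher in basal and 1738 in luminal cells. The call ended in at least 1 of these settings for *Krt5* (luminal 4, basal 5 or 6, edgeR, 0.053).

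Markers of other cell types were not evenly spread over the 2 cell types. The 9 markers of pericytes and vascular muscle, the contractile cells of blood vessels, were all called higher in basal cells, beside 13.8% of all genes. Their summed level was 187, 326 and 215 CPM in luminal and 9551 and 16740.1 CPM in basal libraries. *Rgs5*, a regulator of G protein signalling, is also on the list of contraction effectors below. It was the most abundant marker in basal libraries, with 5321 and 9895 CPM there and 23.9, 109 and 41.2 CPM in luminal libraries. *Notch3*, a receptor known from vascular muscle, was at 142, 174 and 113 CPM in luminal and 2342 and 3984 CPM in basal libraries. None of the 9 was at 0 in a basal library. The basal sums were 1960.0, 4425 and 7939 CPM at L3 and 164, 182 and 201 CPM at W10, so that every L10 basal library exceeded every basal library of those 2 time points. Many contractile genes are expressed by vascular muscle as well as by myoepithelium, and the part of vascular cells in the basal results below was not tested.

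**Figure D2:**
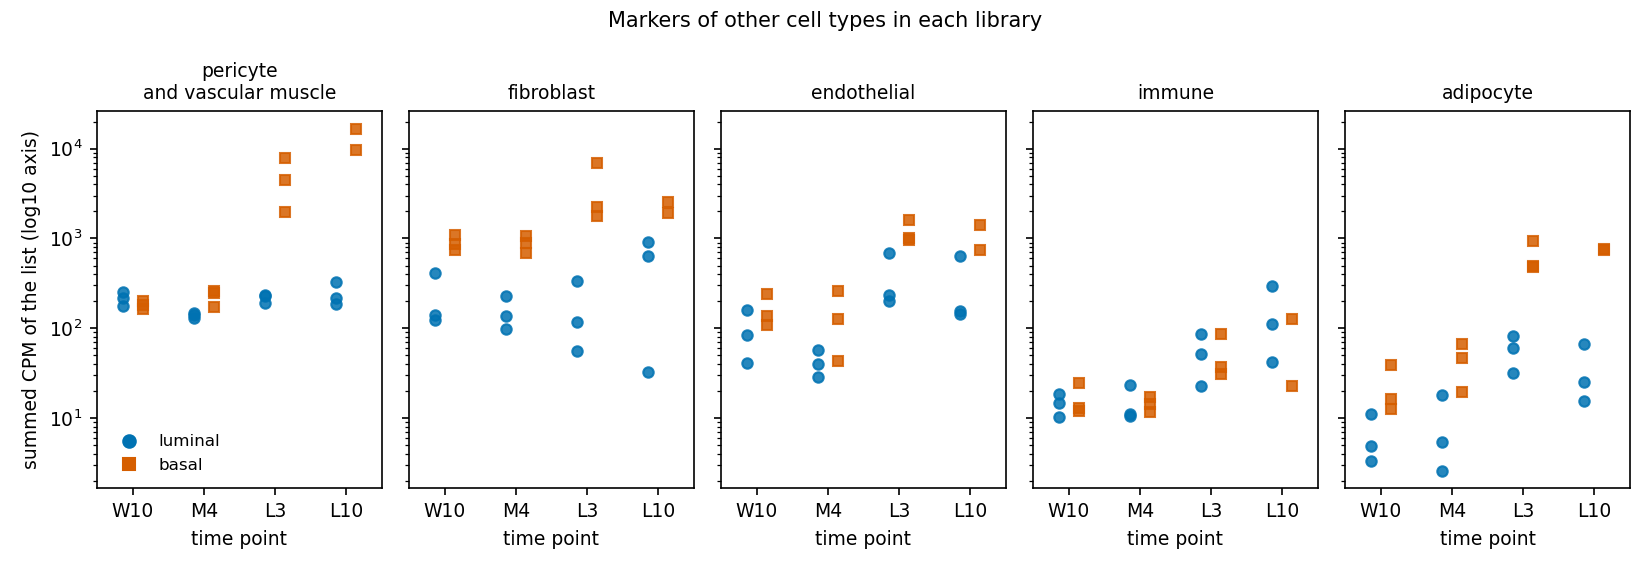
Summed CPM of the pericyte and vascular muscle, fibroblast, endothelial, immune and adipocyte marker lists in each library of L10, L3, W10 and M4, on a log10 axis. Each point is a library, circles luminal and squares basal. The pericyte and vascular muscle sums of the L10 basal libraries (9551 and 16740 CPM) lie above all others shown.

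Markers of fibroblasts and endothelium gave 2 basal calls of 10 each (1 of 10 each by edgeR), beside 13.8% of all genes. By an unadjusted p under 0.05, 5 of the fibroblast and 8 of the endothelial markers were higher in basal cells and 0 lower. Of all 17078 genes, 3992 were higher and 3606 lower at that threshold. No overlap was found for 8 and 6 of the markers, beside 24.3% of all genes. The median log2 fold changes were 2.58 (1.05 without luminal replicate 4 and 1.59 with edgeR) and 2.31. Of the fibroblast markers, *Fbn1* (4.15) and *Col5a1* (3.90), which encode fibrillin and a fibrillar collagen, were called, and the list summed to 32.7, 646 and 919.9 CPM in luminal and 1905 and 2530.4 CPM in basal libraries. The luminal sum of replicate 4 was far below that of the others, with *Col1a1* as the most abundant luminal member. Of the endothelial markers, *Esam* (3.69) and *Flt1* (3.16) were called, and the sums were 155, 643 and 143 CPM in luminal and 1415 and 748 CPM in basal libraries. *Vwf* was the most abundant endothelial marker in luminal and *Cdh5* in basal libraries. All 3 adipocyte markers measured, of 7 listed, were called, and they summed to 15.3, 66.3 and 25.1 CPM in luminal and 765 and 742 CPM in basal libraries. *Lep*, the gene of the hormone leptin, was at 0.266, 1.96 and 1.04 CPM in luminal and 278 and 167 CPM in basal libraries, and *Plin1*, a coat protein of fat droplets in adipocytes, at 0.133, 0 and 0 and 5.42 and 29.5 CPM. *Fabp4*, which endothelium also expresses, was at 14.9, 64.3 and 24.1 and 482 and 546 CPM. No immune marker of 9 measured was called by limma or edgeR (1 was lower in basal cells at an unadjusted p under 0.05), with sums of 41.8, 294 and 111 CPM in luminal and 126 and 22.8 CPM in basal libraries. Of 4 glial markers *Mbp* (-2.58) was called, higher in luminal cells, and of 2 erythrocyte markers none was by limma or edgeR, nor at an unadjusted p under 0.05. *Hba-a1*, a haemoglobin gene, was at 1.33, 10.7 and 6.65 and 13.98 and 9.50 CPM. In these sorted populations fewer cells of a type and less RNA per cell cannot be told apart. Leaving out a library or changing the setting ended the call of *Col5a1* (luminal 4, basal 5 or 6, edgeR, milk genes removed, 0.0786) and *Flt1* (luminal 4 or 6, basal 5 or 6, edgeR, pseudocount 0.1, milk genes removed, 0.045). The log2 fold change became 2.46 for *Col5a1* without luminal replicate 4.

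The 10 largest basal differences, among called genes without overlap between the groups, were *Cnn1* (8.25), *Myh11* (8.14), *Olfr558* (8.00), *Myl9* (7.95), *Map3k7cl* (7.92), *Aoc3* (7.92), *Actg2* (7.77), *Acta2* (7.76), *Synpo2* (7.73) and *Mylk* (7.68). Calponin, smooth muscle myosin heavy chain, myosin light chain, 2 smooth muscle actins, synaptopodin 2 and myosin light chain kinase are among their products. *Olfr558*, a gene of the olfactory receptor family, was at 0.798, 2.10 and 1.12 CPM in luminal and 549 and 621 CPM in basal libraries. *Aoc3*, an amine oxidase of smooth muscle and fat, was at 6.52, 17.3 and 4.75 and 2078 and 2404 CPM. The groups were far apart for both genes, with every luminal library below 20 CPM.

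The 10 largest luminal differences were *Calca* (-6.83), *Tph1* (-6.72), *Muc4* (-6.29), *Saa1* (-6.12), *Spp1* (-6.06), *Grb7* (-5.94), *Saa2* (-5.82), *C3* (-5.79), *Cited1* (-5.69) and *Cel* (-5.67). *Tph1*, the enzyme that starts serotonin synthesis, was at 194, 182 and 261 CPM in luminal and 2.10 and 0.285 CPM in basal libraries. *Calca*, which encodes calcitonin and a related peptide, was at 517, 41.5 and 265 and 0.699 and 0.475 CPM. Luminal replicate 5 had the lowest luminal value of *Calca*, still far above the basal libraries. The acute phase genes *Saa1* (151, 20.2 and 207 CPM in luminal libraries), *Saa2* (92.1, 14.4 and 178 CPM) and the complement gene *C3* (6667, 716 and 4027 CPM) were lowest in that library too. Across all genes, 24.3% were higher in both basal libraries than in every luminal library and 23.5% lower. Not called in every setting were *Calca* (basal 6, 0.0136) and *Cited1* (basal 6, 0.0138).

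Milk protein genes were higher in every luminal library than in either basal library. Of 18 genes, 16 were called luminal by limma and by edgeR, beside 10.9% of all genes by limma. None was called basal, and none had an unadjusted p under 0.05 in that direction. All 18 had no overlap between the groups, with a median log2 fold change of -4.64. *Csn2* was at 99220.5, 222636 and 260625 CPM in luminal and 13012 and 4343 CPM in basal libraries, a log2 fold change of -4.58 ± 0.94 (SE, adjusted p = 0.00017). *Csn1s1*, which encodes an alpha-casein, was at 39191, 96364 and 94905 CPM in luminal and 4883 and 1304 CPM in basal libraries, a log2 fold change of -4.81 ± 0.86 (SE, adjusted p = 2.4e-05). Among the luminal libraries replicate 4 was the lowest in both genes, and of the basal libraries replicate 5 was the higher, with no overlap between the cell types. *Wap*, the whey acidic protein gene (-4.87), *Lalba*, the gene of the lactose synthase cofactor alpha-lactalbumin (-4.81), and the secreted proteins *Spp1* and *Cel* (a milk lipase) were in the same direction, the last pair with -6.06 and -5.67. *Csn1s2b* (-3.06 ± 0.98 SE, adjusted p = 0.013, and adjusted p = 0.00237 with the sort as a block and 0.000302 without luminal replicate 4) and *Glycam1* (-4.34 ± 1.67 SE, adjusted p = 0.038) missed the threshold. Both basal libraries held milk RNA. As a share of the luminal library of the same sort, its median over the 18 genes was 6.03% in the replicate 5 sort and 1.70% in the replicate 6 sort. *Csn2* was at 5.84 and 1.67%, *Csn1s1* at 5.07 and 1.37%, and *Btn1a1*, the gene of butyrophilin, at 6.48 and 1.80%. *Mfge8*, the gene of the milk fat globule protein MFG-E8, was at 10.2% in both sorts, and *Lcn2*, an iron-binding defence protein, at 14.4 and 6.79%. A library left out or another setting ended the call of *Csn2* (basal 6, 0.0175), *Wap* (basal 6, 0.0168) and *Btn1a1* (basal 6, 0.0218).

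STAT5 binds the motif TTCNNNGAA, which is known from casein promoters, and the promoters of the main caseins are therefore shown. RefSeq promoters (GRCm38.p6, 250 bases before to 50 after the gene start) were in the table used here for 5 of the 7 genes looked up, and 3 of these 5 hold the motif on either strand, against 8.30% of all 32851 promoters of the table. In the *Csn2* promoter (chr5:87699376-87699675, minus strand) the match begins at position -93 from the gene start, in that of *Csn1s1* (chr5:87665958-87666257, plus strand) at -100, and in that of *Csn1s2a* (chr5:87774200-87774499, plus strand) at 21. The promoters of *Wap* and *Lalba* hold no match in this window, which says nothing on STAT5 at other sites. The 2 promoters of the casein genes with the most reads are given 5′ to 3′ along the gene, with the motif in capitals.
Csn2: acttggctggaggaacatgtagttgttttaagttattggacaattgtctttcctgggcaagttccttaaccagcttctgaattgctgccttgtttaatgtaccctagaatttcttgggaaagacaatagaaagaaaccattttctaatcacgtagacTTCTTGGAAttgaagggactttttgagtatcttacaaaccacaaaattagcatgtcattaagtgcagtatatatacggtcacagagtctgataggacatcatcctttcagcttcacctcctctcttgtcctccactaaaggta
Csn1s1: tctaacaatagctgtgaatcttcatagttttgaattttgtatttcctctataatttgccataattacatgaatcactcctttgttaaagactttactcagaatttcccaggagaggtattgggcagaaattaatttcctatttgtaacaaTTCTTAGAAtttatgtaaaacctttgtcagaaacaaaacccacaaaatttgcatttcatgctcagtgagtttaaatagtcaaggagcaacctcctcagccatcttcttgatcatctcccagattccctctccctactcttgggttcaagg
A match is a description of the letters and not of binding.

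The genes that supply STAT5 signalling were partly luminal. Of 13 genes of prolactin and STAT5 signalling, 4 were called higher in luminal and 1 in basal cells, beside 10.9% and 13.8% of all genes. Their median was -0.51 (-0.875 with the milk protein genes removed). The prolactin receptor gene *Prlr* was at 656, 521 and 696 CPM in luminal and 13.2 and 46.0 CPM in basal libraries, a log2 fold change of -4.59 ± 0.90 (SE, adjusted p = 8.9e-05). *Elf5*, a transcription factor of secretory cells that acts with STAT5, was at 354, 347 and 590.4 CPM in luminal and 39.6 and 11.7 CPM in basal libraries, a log2 fold change of -4.20 ± 0.58 (SE, adjusted p = 3.4e-07). *Stat5a* (-1.33) and the kinase gene *Jak2* (-1.14) differed less, without overlap between the groups. *Socs3*, which encodes an inhibitor of cytokine signalling, went the other way, with 97.4, 182 and 317 CPM in luminal and 1089 and 1063 CPM in basal libraries (2.59 ± 0.45 SE, adjusted p = 1.7e-05). Lost in a setting was the call of *Stat5a* (luminal 4 or 6, basal 6, 0.184) and *Jak2* (luminal 5, basal 6, 0.177). Moved values of the log2 fold change were -0.86 for *Stat5a* without basal replicate 6 and -0.72 for *Jak2* without basal replicate 6.

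**Figure D3:**
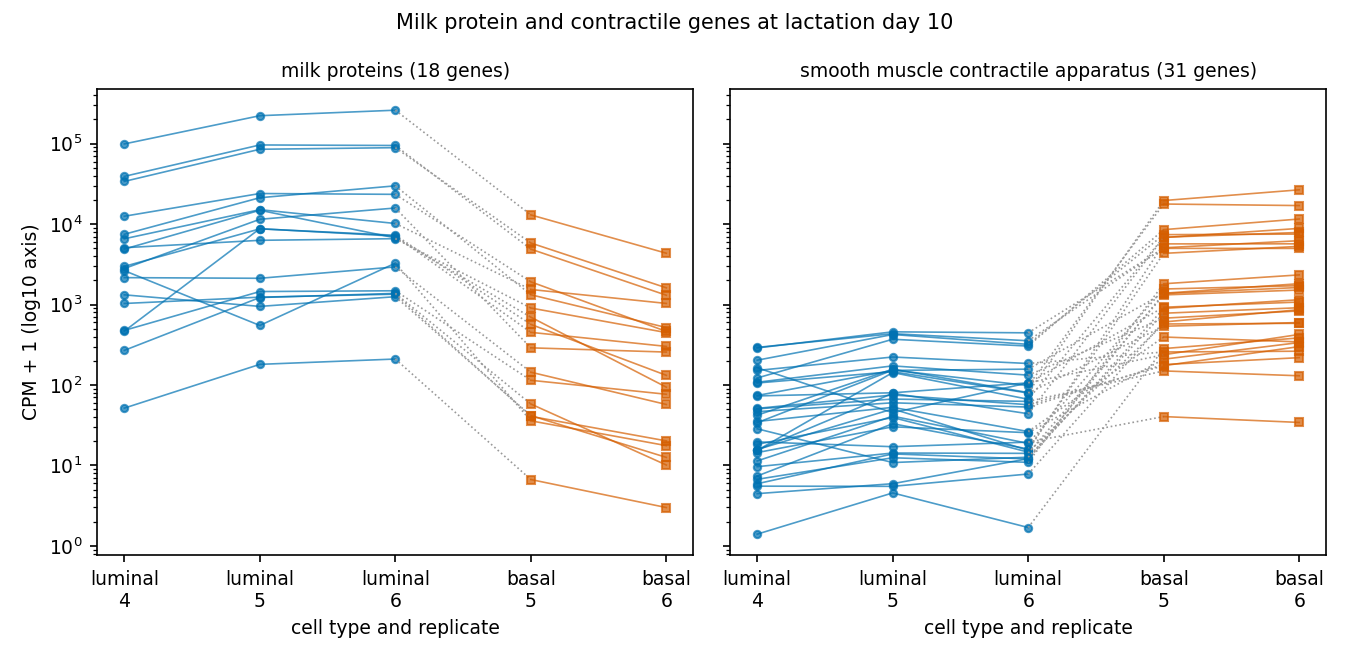
Levels in the 5 L10 libraries of the 18 milk protein genes (left) and the 31 contractile genes (right), on a log10 axis of CPM + 1. Each line joins the values of a gene over luminal replicates 4, 5 and 6 and basal replicates 5 and 6. All 18 milk genes are lower in both basal libraries than in every luminal library, and all 31 contractile genes are higher.

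Of the genes for lactose, fat and cholesterol, fat synthesis had the most calls. In milk fat synthesis 16 of 29 genes were called luminal and 1 basal, beside 10.9% and 13.8% of all genes, with a median of -1.49. *Scd1*, the stearoyl-CoA desaturase, was at 3739, 3087 and 4919 CPM in luminal and 168 and 218 CPM in basal libraries (-4.32 ± 0.53 SE, adjusted p = 4.4e-08). *Fasn*, the fatty acid synthase, was at 2517, 2462 and 5006 and 239 and 272 CPM (-3.62 ± 0.54 SE, adjusted p = 1.3e-06). *Olah*, the thioesterase that ends chains at medium length, was at 35.5, 222 and 152 and 4.45 and 0.38 CPM (-5.29 ± 0.71 SE, adjusted p = 1.9e-07). No basal value of these 3 genes reached a luminal one. The fatty acid carrier *Fabp3* (-4.57), the droplet coat gene *Plin2* (-4.39), the carboxylase *Acaca* (-2.85) and *Srebf1*, the transcription factor of lipid synthesis (-1.42), were luminal as well. The 1 basal call was *Mid1ip1*, a regulator of the carboxylase, at 3.73, 8.99 and 4.58 CPM in luminal and 32.4 and 39.7 CPM in basal libraries (2.52 ± 0.43 SE, adjusted p = 1.4e-05). The fatty acid transporter gene *Cd36*, most abundant of the list in basal libraries, was not called (-0.81 ± 1.07 SE, adjusted p = 0.6). The call ended in at least 1 of these settings for *Srebf1* (luminal 4 or 6, basal 5 or 6, 0.0704).

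Lactose and glucose genes gave 5 luminal calls of 13 and no basal call by limma or edgeR (0 at an unadjusted p under 0.05), with a median of -0.85. Of all genes, 10.9% were called luminal and 13.8% basal by limma. *B4galt1*, the catalytic subunit of lactose synthase, was at 631, 993 and 1141 CPM in luminal and 251 and 157 CPM in basal libraries (-2.16 ± 0.31 SE, adjusted p = 6.9e-07). *Slc2a1*, the glucose transporter GLUT1, was at 705, 842 and 824 and 276 and 209 CPM (-1.71 ± 0.48 SE, adjusted p = 0.0047). *Hk2*, a hexokinase (-3.22), and *Slc35a2*, which carries UDP-galactose into the Golgi (-1.36), were called as well. Each of the 5 had separate groups. Cholesterol synthesis had 6 luminal calls of 21 genes and no basal call by limma or edgeR (1 at an unadjusted p under 0.05), with a median of -0.53 (-0.24 without luminal replicate 5, -0.87 without luminal replicate 4, -0.82 without basal replicate 6, and -0.90 with the milk protein genes removed). *Mvd* (diphosphomevalonate decarboxylase) was at 18.6, 19.7 and 15.2 CPM in luminal and 0.699 and 0 CPM in basal libraries (-3.85 ± 0.51 SE, adjusted p = 2e-07). *Ebp*, a sterol isomerase (-2.00), and *Idi1*, an isomerase of isoprenoid synthesis (-1.77), were called, and *Pmvk* was not (-1.14 ± 0.46 SE, adjusted p = 0.051, and adjusted p = 0.00462 without luminal replicate 4). *Srebf2*, the transcription factor of the pathway, was at 165, 197 and 188 and 322 and 342 CPM and not called (0.86 ± 0.34 SE, adjusted p = 0.044). Leaving out a library or changing the setting ended the call of *Slc2a1* (luminal 5 or 6, basal 5 or 6, 0.071), *Slc35a2* (luminal 5 or 6, basal 6, 0.186) and *Idi1* (luminal 5 or 6, basal 6, 0.127). The log2 fold change became -0.83 for *Slc35a2* without basal replicate 6.

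Genes for export and transport showed both directions. In the secretory pathway 10 of 30 genes were called luminal and 1 basal, beside 10.9% and 13.8% of all genes. The median was -0.43 (-0.79 with the milk protein genes removed). *Xbp1*, a transcription factor of the endoplasmic reticulum, was at 476, 384 and 693 CPM in luminal and 113 and 102 CPM in basal libraries (-2.22 ± 0.27 SE, adjusted p = 4.2e-08), and *Ssr4*, a subunit of the translocon-associated complex, at 35.9, 37.0 and 56.4 and 12.8 and 2.56 CPM (-2.62 ± 0.42 SE, adjusted p = 4.7e-06). The chaperone genes with the most reads, *Hspa5* (-0.61 ± 0.30 SE, adjusted p = 0.11) and *Hsp90b1* (-0.28 ± 0.31 SE, adjusted p = 0.52), were not called. *Creb3l2*, a membrane-bound transcription factor, was the basal call (1.12 ± 0.24 SE, adjusted p = 0.00038). Not called in every setting was *Creb3l2* (luminal 4, milk genes removed, log2 fold change 0.75). Moved values of the log2 fold change were -1.65 for *Ssr4* without basal replicate 6.

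Calcium genes were divided between the layers, with 6 basal and 4 luminal calls of 14, beside 13.8% and 10.9% of all genes. Their median was 0.31 (0.04 with the milk protein genes removed, as above, and 0.885 without basal replicate 6). The luminal calls were *Atp2c2* (-4.36) and *Atp2c1* (-1.20), pumps of the Golgi, *Atp2b2*, the pump of the apical membrane (-3.59), and the channel gene *Orai1* (-2.38). *Atp2b2* was at 11.3, 136 and 232 CPM in luminal and 10.3 and 2.28 CPM in basal libraries, so that luminal replicate 4 was close to basal replicate 5. In basal cells the plasma membrane pump *Atp2b4* was at 672 and 998.9 CPM against 17.0, 83.4 and 28.9 in luminal cells (4.52 ± 0.55 SE, adjusted p = 3.3e-08), and the sodium-calcium exchanger *Slc8a1* at 18.7 and 13.2 against 0.133, 0.507 and 0.691 CPM (3.55 ± 0.45 SE, adjusted p = 7e-08). *Atp2a2*, the pump of the muscle and general reticulum, had the most reads of the list (1.95 ± 0.33 SE, adjusted p = 8.9e-06). Among amino acid and ion carriers 9 of 18 were called luminal and 1 basal, beside 10.9% and 13.8% of all genes, with a median of -1.90. The phosphate carrier *Slc34a2* was at 255, 802 and 904 CPM in luminal and 33.4 and 14.8 CPM in basal libraries (-4.61 ± 0.79 SE, adjusted p = 1.3e-05), and the large neutral amino acid carrier *Slc7a5* at 496, 657 and 649 and 90.2 and 119 CPM (-2.51 ± 0.37 SE, adjusted p = 1.3e-06). *Slc39a8*, a metal ion carrier, varied among the luminal libraries (76.5, 1579 and 862 CPM against 112 and 33.0 CPM), and its groups overlapped although it was called (-2.93 ± 0.79 SE, adjusted p = 0.0032). The basal call was the glutamine carrier *Slc1a5* (1.74 ± 0.38 SE, adjusted p = 0.00038). A library left out or another setting ended the call of *Atp2c1* (basal 5, 0.0402), *Atp2b2* (basal 6, 0.0205), *Slc39a8* (luminal 5 or 6, basal 6, 0.129) and *Slc1a5* (basal 5, 0.0303). The log2 fold change became -2.49 for *Atp2c2* without basal replicate 6.

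The contractile apparatus was the list with the highest share of calls among those with more than 10 genes. Of 31 genes, 28 were called higher in basal cells by limma and by edgeR, beside 13.8% of all genes by limma. None was called higher in luminal cells or had an unadjusted p under 0.05 in that direction. All 31 had no overlap between the groups, and the median log2 fold change was 4.72. *Acta2*, the smooth muscle alpha-actin gene, was at 33.0, 152 and 97.3 CPM in luminal and 17766 and 16996 CPM in basal libraries, a log2 fold change of 7.76 ± 0.69 (SE, adjusted p = 6.8e-11). *Myh11*, the smooth muscle myosin heavy chain, was at 41.1, 156 and 79.5 CPM in luminal and 19627 and 26675 CPM in basal libraries (8.14 ± 0.72 SE, adjusted p = 6.7e-11). *Cnn1*, which encodes calponin, was at 6.39, 32.0 and 15.0 and 4327 and 5286 CPM (8.25 ± 0.78 SE, adjusted p = 2.3e-10). Within a sort the luminal level of these genes was at most 0.856% of the basal one, the highest share being that of *Acta2* in the replicate 5 sort. The transcriptional regulators differed in size. *Myocd*, the coactivator myocardin of muscle, was at 0.399, 3.55 and 0.691 CPM in luminal and 283 and 384 CPM in basal libraries (7.22 ± 0.71 SE, adjusted p = 4.5e-10), its partner *Srf* at 72.1, 79.0 and 105 and 237 and 424 CPM (1.90 ± 0.35 SE, adjusted p = 4.8e-05), and *Mrtfa* (1.92) was called while *Mrtfb* (0.50 ± 0.35 SE, adjusted p = 0.28) was not. Of the filamins, *Flna* (3.98) was called and *Flnc* (1.23 ± 0.68 SE, adjusted p = 0.16) was not. Summed over the list, the level was 1993, 3539.5 and 2829.6 CPM in luminal and 101408 and 119087 CPM in basal libraries. The basal sums at L3 were 131147, 136054 and 70926 CPM for replicates 4, 5 and 6. Lost in a setting was the call of *Srf* (basal 6, 0.0117).

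Contractile genes are regulated by serum response factor through the CArG box. Of the 31 genes, 27 were found in the RefSeq promoter table with 35 promoters. An exact CArG box (CC, then 6 bases that are A or T, then GG) lies on either strand within this window in 5 of the 35 promoters, against 1.63% of all promoters of the table. These promoters belong to 5 genes, *Myl9*, *Cnn2*, *Myl6*, *Vcl* and *Srf*. Of these genes *Myl9* had the largest difference (7.95 ± 0.74 SE, adjusted p = 1.6e-10), with 14.8, 49.4 and 14.4 CPM in luminal and 5674 and 5686 CPM in basal libraries. Its promoter (chr2:156775214-156775513, plus strand) and that of *Srf* (chr17:46556113-46556412, minus strand), which holds 2 boxes, are shown with the boxes in capitals.
Myl9: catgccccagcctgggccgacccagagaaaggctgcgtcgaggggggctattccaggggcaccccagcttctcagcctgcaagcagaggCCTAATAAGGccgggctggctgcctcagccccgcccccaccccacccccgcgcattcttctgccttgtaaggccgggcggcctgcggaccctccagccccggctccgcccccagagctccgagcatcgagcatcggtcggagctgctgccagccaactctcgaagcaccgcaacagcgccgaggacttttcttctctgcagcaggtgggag
Srf: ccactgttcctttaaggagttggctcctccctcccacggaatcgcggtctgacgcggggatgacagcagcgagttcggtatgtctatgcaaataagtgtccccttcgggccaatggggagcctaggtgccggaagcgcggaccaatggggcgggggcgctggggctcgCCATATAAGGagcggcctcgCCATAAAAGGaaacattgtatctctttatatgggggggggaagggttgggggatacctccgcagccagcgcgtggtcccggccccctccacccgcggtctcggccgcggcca
Elements that differ from these letters by a base were not searched for, so the other genes, *Acta2* among them, are not shown to lack CArG elements in this window.

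Receptors that trigger contraction, and the proteins downstream of them, gave more basal than luminal calls. Of 37 genes, 19 were called basal and 4 luminal, beside 13.8% and 10.9% of all genes, with a median of 1.76. *Oxtr*, the oxytocin receptor, was at 79.0, 40.4 and 62.4 CPM in luminal and 2652 and 2932 CPM in basal libraries (5.55 ± 0.87 SE, adjusted p = 3.2e-06). The adrenoceptor gene *Adra1b* was at 0.266, 0.145 and 0.345 CPM in luminal and 21.0 and 38.8 CPM in basal libraries (4.57 ± 0.40 SE, adjusted p = 4.2e-11), and *Adra1d* at 0, 0.362 and 0.259 and 6.29 and 33.9 CPM (3.74 ± 0.60 SE, adjusted p = 4.3e-06). Several of these luminal values lie under the floor of 3 reads. *Adra2a* (2.44), *Adra2b* (3.19) and *Adra2c* (1.95) were called too. *Adra2a* differed widely between the basal libraries (9.00 and 56.1 CPM), *Adra2b* less (12.8 and 6.55 CPM). After *Rgs5*, *Rgs4*, another regulator of G protein signalling, had the largest difference (6.07 ± 0.87 SE, adjusted p = 7e-07). The luminal calls were the calcium release channels *Itpr2* (-2.33) and *Itpr3* (-1.95) and the lysophosphatidic acid receptors *Lpar2* (-1.81) and *Lpar3* (-1.20). *Lpar3* was at 1.06, 2.32 and 2.33 CPM in luminal and 0.524 and 0 CPM in basal libraries, and *Lpar1* was low in both (1.20, 2.46 and 1.64 and 2.10 and 4.37 CPM) and not called (0.58 ± 0.79 SE, adjusted p = 0.61). The call ended in at least 1 of these settings for *Adra2a* (basal 6, milk genes removed, 0.256), *Adra2c* (basal 5, 0.0222), *Lpar2* (luminal 4, basal 6, edgeR, 0.376) and *Lpar3* (luminal 5 or 6, basal 6, edgeR, pseudocount 0.1, 0.142). Moved values of the log2 fold change were 3.70 for *Adra2a* without basal replicate 5, 1.19 for *Adra2a* without basal replicate 6, 1.27 for *Adra2c* without basal replicate 5, -2.90 for *Lpar2* without basal replicate 5 and -0.73 for *Lpar2* without basal replicate 6. With edgeR the log2 fold change of *Lpar3* was -2.79.

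Basement membrane, integrin and adhesion genes gave more basal than luminal calls. Of 29 basement membrane and hemidesmosome genes, 19 were called basal and none luminal (0 luminal by edgeR and at an unadjusted p under 0.05), with a median of 2.17. The shares of all genes called by limma were 13.8% basal and 10.9% luminal. *Sparc*, a matrix protein, was at 106, 594 and 438 CPM in luminal and 11673 and 12339.8 CPM in basal libraries (5.31 ± 0.65 SE, adjusted p = 3.8e-08). *Col4a2*, a collagen IV chain, was at 23.8, 58.6 and 53.5 and 1945 and 2101 CPM (5.55 ± 0.46 SE, adjusted p = 2.1e-11), and *Dst*, a plakin of hemidesmosomes, at 478, 863 and 647 and 3704 and 4512 CPM (2.67 ± 0.38 SE, adjusted p = 7.4e-07). Laminin chains were split, with *Lamb2* called (3.14 ± 0.39 SE, adjusted p = 4.1e-08) and *Lamb3* not (0.84 ± 0.48 SE, adjusted p = 0.18). The hemidesmosome integrins *Itga6* (0.13 ± 0.48 SE, adjusted p = 0.88) and *Itgb4* (-0.43 ± 0.61 SE, adjusted p = 0.63) were not called either. Of 26 integrin and focal adhesion genes, 13 were called basal and 1 luminal, with a median of 1.64. Among the 13 was *Itgb1*, the antigen of the gate, whose difference is not a finding. *Lims2*, an adaptor of integrin-linked kinase, was at 0.399, 7.32 and 0.518 CPM in luminal and 194 and 179 CPM in basal libraries (6.17 ± 0.67 SE, adjusted p = 3.7e-09). *Itga1*, a collagen receptor chain (5.55 ± 0.51 SE, adjusted p = 1.3e-10), *Tns1*, a tensin of focal adhesions (5.04 ± 0.67 SE, adjusted p = 1.8e-07), and *Tln1*, a talin (2.41 ± 0.22 SE, adjusted p = 1.6e-10), were basal. *Itgb6* was the luminal call (-2.24 ± 0.51 SE, adjusted p = 0.00064). *Parvb* (2.81 ± 0.92 SE, adjusted p = 0.014, and adjusted p = 0.00146 without luminal replicate 5) and *Fblim1* (1.52 ± 0.48 SE, adjusted p = 0.011, and adjusted p = 0.00661 with the sort as a block, 0.00885 with median-ratio scaling and 0.000986 without luminal replicate 6) were higher in basal cells on average and did not pass. *Ilk* was at or below 1.22 CPM in every library, and 89.7% of its exon bases are shared with another gene, so its value is uncertain. It was not called (0.99 ± 0.27 SE, adjusted p = 0.0032), but was called basal with a pseudocount of 0.1 (3.23, adjusted p = 0.00331) and without luminal replicate 5 (1.02, adjusted p = 0.00628). Leaving out a library or changing the setting ended the call of *Itgb6* (basal 6, 0.141). The log2 fold change became -1.21 for *Itgb6* without basal replicate 6.

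Cell junction genes gave 15 luminal and 5 basal calls of 31, beside 10.9% and 13.8% of all genes, with a median of -1.14. *Cdh1*, the epithelial cadherin, was at 1095, 1316 and 1184 CPM in luminal and 256 and 225 CPM in basal libraries (-2.31 ± 0.40 SE, adjusted p = 1.8e-05). The gap junction gene *Gjb2* was at 345, 155 and 325 and 11.6 and 1.61 CPM (-5.50 ± 0.74 SE, adjusted p = 2.5e-07), and *Marveld2*, a protein of tricellular tight junctions, at 48.2, 82.1 and 81.9 and 1.75 and 0.095 CPM (-5.33 ± 0.67 SE, adjusted p = 6.7e-08). All 5 basal calls were cadherins, namely *Cdh6*, *Cdh3*, *Cdh13*, *Cdh4* and *Cdh2*. *Cdh6* was at 0.133, 0.217 and 0.173 CPM in luminal and 50.05 and 75.1 CPM in basal libraries (5.73 ± 0.59 SE, adjusted p = 1.4e-09), with luminal values under the floor. *Cdh3*, the placental cadherin of basal cells, was at 5.72, 58.2 and 12.0 and 279.5 and 213 CPM (3.82 ± 0.77 SE, adjusted p = 0.00013), highest among luminal libraries in replicate 5. The log2 fold changes of *Cdh13*, *Cdh4* and *Cdh2* were 3.24, 2.83 and 2.12. The endothelial cadherin *Cdh5* was not called (3.01 ± 1.01 SE, adjusted p = 0.017, and adjusted p = 0.00403 without luminal replicate 5). Not called in every setting were *Cdh13* (luminal 4, basal 5 or 6, 0.0175), *Cdh4* (basal 6, 0.0625) and *Cdh2* (luminal 5, basal 6, pseudocount 0.1, milk genes removed, 0.0948).

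Growth factor genes were called in both directions. Of 14 IGF and insulin genes 7 were called basal and none luminal (0 luminal by edgeR and at an unadjusted p under 0.05), with a median of 1.72. Over all genes 13.8% were called basal and 10.9% luminal by limma. *Igfbp7*, an IGF-binding protein also made by vessels, was at 41.8, 96.5 and 46.2 CPM in luminal and 2593 and 2809 CPM in basal libraries (5.54 ± 0.57 SE, adjusted p = 1.2e-09). *Igf1r*, the IGF receptor, was at 28.5, 48.7 and 18.4 and 91.0 and 135 CPM (1.87 ± 0.43 SE, adjusted p = 0.00069). *Igf2* was basal (5.20 ± 0.83 SE, adjusted p = 4.4e-06), but 62.8% of its exon bases are shared with another gene. *Igfbp2* (4.47), *Igfbp4* (3.32), *Igfbp6* (4.24) and the adaptor *Grb10* (1.94) completed the calls. *Igfbp5*, the binding protein with the most reads in luminal cells, was at 4909, 4247 and 4554 CPM there and 2492 and 3703 CPM in basal libraries and was not called (-0.59 ± 0.51 SE, adjusted p = 0.4), and nor were *Irs1* (1.05 ± 0.56 SE, adjusted p = 0.14, with 30.9% of its exon bases shared), *Irs2* (1.14 ± 0.56 SE, adjusted p = 0.11) and the insulin receptor *Insr* (-0.08 ± 0.48 SE, adjusted p = 0.93). A library left out or another setting ended the call of *Igf1r* (basal 6, 0.0303) and *Grb10* (basal 6, 0.0242).

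In the EGF family 5 of 14 genes were called luminal and 2 basal, beside 10.9% and 13.8% of all genes, with a median of -1.42. The receptor *Erbb3* was at 147, 172 and 204 CPM in luminal and 12.6 and 1.23 CPM in basal libraries (-4.98 ± 0.60 SE, adjusted p = 3.3e-08), and *Erbb4*, a receptor for neuregulins like *Erbb3*, at 41.2, 38.6 and 104 and 0.873 and 2.28 CPM (-4.50 ± 0.72 SE, adjusted p = 5.1e-06). Neuregulin genes were the 2 basal calls. *Nrg1* was at 0.532, 23.1 and 2.50 CPM in luminal and 137 and 121 CPM in basal libraries (4.68 ± 0.72 SE, adjusted p = 2.4e-06), and *Nrg2* at 0, 0.29 and 0 and 12.8 and 12.8 CPM (3.67 ± 0.42 SE, adjusted p = 1.1e-08). The ligand genes *Areg* (-4.17), *Nrg4* (-2.70) and *Btc* (-1.95) were luminal, with *Btc* at 2.66, 2.68 and 3.89 CPM in luminal and 0.0873 and 0 CPM in basal libraries. *Hbegf* (-1.58 ± 0.66 SE, adjusted p = 0.058) and the receptor gene *Egfr* (0.75 ± 0.52 SE, adjusted p = 0.27) were not called. Lost in a setting was the call of *Areg* (basal 6, 0.0539) and *Btc* (basal 5 or 6, 0.0253). Moved values of the log2 fold change were -2.76 for *Areg* without basal replicate 6.

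Transcription factors of lineage had 14 basal and 9 luminal calls of 35, with a median of 0.82 (1.29 without basal replicate 6, and 0.48 with the milk protein genes removed). *Ehf*, an ETS factor of epithelia, was at 413, 812 and 853 CPM in luminal and 22.2 and 7.22 CPM in basal libraries (-5.58 ± 0.49 SE, adjusted p = 4.8e-11), and *Foxa1*, a factor of hormone-sensing luminal cells, at 46.4, 65.0 and 40.6 and 1.75 and 0.38 CPM (-4.70 ± 0.75 SE, adjusted p = 4e-06). *Zeb2*, a repressor of epithelial genes, was at 1.33, 10.8 and 8.63 CPM in luminal and 394 and 641 CPM in basal libraries (6.29 ± 0.83 SE, adjusted p = 1.4e-07). *Klf4* (1.45) was basal and *Klf5* (-3.38) luminal. *Sox9*, present in both layers, was not called (-0.77 ± 0.36 SE, adjusted p = 0.093), but was called luminal without luminal replicate 4 (adjusted p = 0.00817) and with milk genes removed (0.00456). The call ended in at least 1 of these settings for *Klf4* (luminal 4 or 6, basal 5 or 6, milk genes removed, 0.0567). None of 24 genes of mitosis and DNA replication was called in either direction by limma, against 13.8% and 10.9% of all genes, and their median was -0.90 (-0.37 without luminal replicate 4 and -0.52 without basal replicate 6). *Mki67*, a marker of cycling cells, was at 298, 153 and 148 CPM in luminal and 94.1 and 50.05 CPM in basal libraries (-1.45 ± 0.87 SE, adjusted p = 0.2), and *Pcna*, the sliding clamp of replication, at 92.1, 50.7 and 41.1 and 62.8 and 97.6 CPM (0.43 ± 0.31 SE, adjusted p = 0.29). By an unadjusted p under 0.05 in limma 4 of the 24 were lower in basal cells and 0 higher. Of all 17078 genes, 3606 were lower and 3992 higher at that threshold. In either direction edgeR called 0 of the 24.

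**Figure D4:**
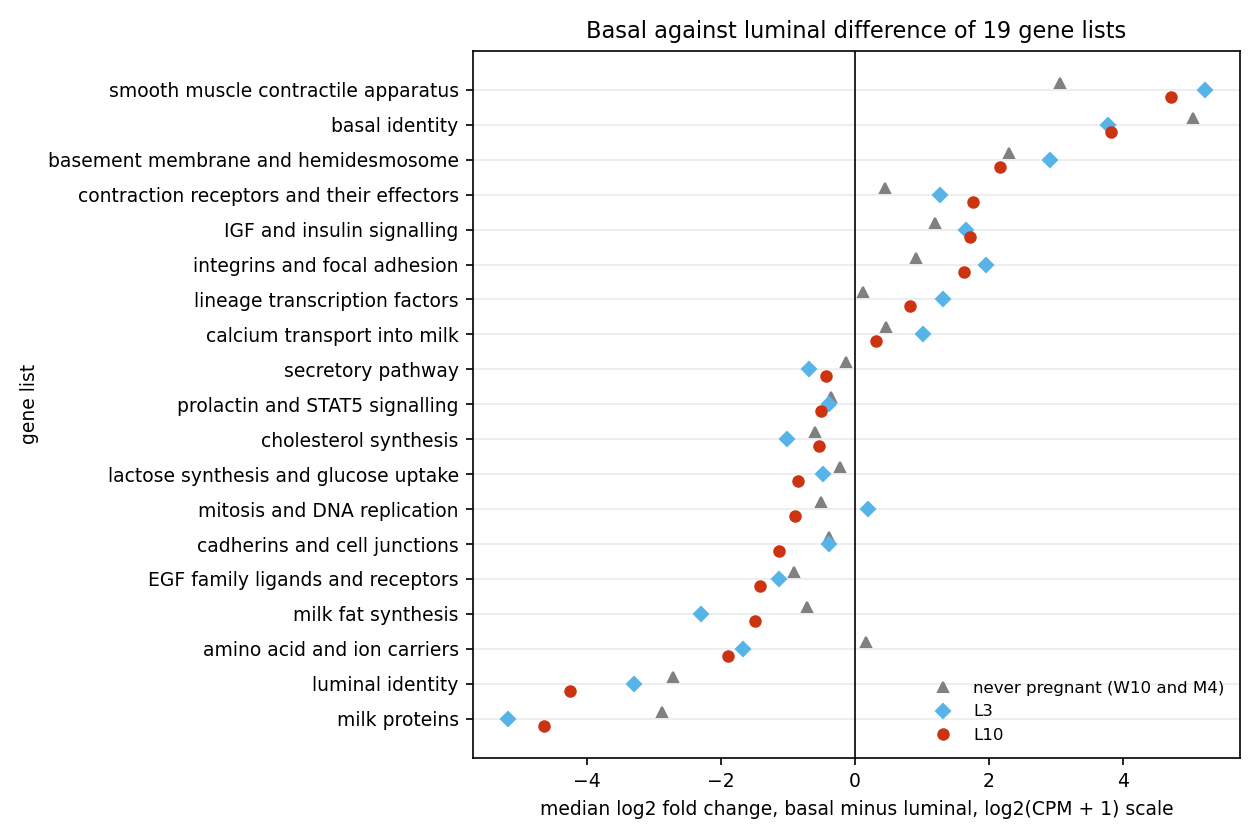
Median log2 fold change, basal minus luminal, in 19 gene lists, at L10, at L3 and in never-pregnant glands (mean of W10 and M4). Each point is the median over the members of a list, at the left of the zero line for luminal and at the right for basal. The contractile list lies at 4.72 at L10, 5.22 at L3 and 3.06 before pregnancy, and the milk protein list at -4.64, -5.18 and -2.87.

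The gap between the layers, basal minus luminal, was compared with that at L3. The difference of the 2 gaps, tested directly, was called for 18 genes in the basal direction (0.105% of all genes) and 48 in the luminal direction (0.281%). With the sort as a block the counts were 59 and 118, and with edgeR 6 and 21. Without basal replicate 6 they were 7 and 5, and without basal replicate 5 they were 156 and 301. A fit to the L3 and L10 libraries alone gave 0 and 0, so the calls of all 10 genes named for a difference from L3 were lost in it. *Crhr2*, a receptor for urocortins, was at 0.133, 0.145 and 0 CPM in luminal and 16.6 and 51.7 CPM in basal libraries at L10, and its gap was wider towards basal than at L3 by 3.67 (SE 0.71, adjusted p = 0.0051). The other 4 largest shifts to basal were those of *Lrrc73* (3.83), *Gm13033* (3.65), *Mmab*, an enzyme of vitamin B12 metabolism (3.54), and *Map3k15* (3.39). *Map3k15* was high in basal replicate 6 alone (2.10 and 19.0 CPM). Towards luminal the largest shifts were those of *Plekhs1* (-4.99), *Cit*, a kinase of cell division (-4.70), *Krt23*, a keratin (-4.43), and *Spock1*, a matrix proteoglycan (-4.13). *Plekhs1* was at 19.96, 32.0 and 19.2 CPM in luminal and 7.34 and 0.38 CPM in basal libraries at L10, and the sign of its gap was opposite at L3 (2.16). Of the 19 pathway lists only that of calcium transport held a called member, *Pthlh*, the gene of parathyroid hormone-related protein, with -2.59 (edgeR gave -2.65 with an adjusted p of 0.0823). L10 had 2 basal libraries, so the precision of this comparison is limited, and a gene that was not called is not shown to be alike at both days. With a library left out or under another setting the call of a difference was lost for *Crhr2* (luminal 6, basal 6, edgeR, pseudocount 0.1, 0.15), *Lrrc73* (basal 6, edgeR, pseudocount 0.1, 0.0364), *Gm13033* (luminal 4 or 6, basal 6, edgeR, pseudocount 0.1, milk genes removed, 0.104), *Mmab* (luminal 4, basal 6, edgeR, 0.0227), *Map3k15* (basal 6, 0.104), *Cit* (luminal 4 or 5, basal 6, edgeR, 0.112), *Krt23* (basal 6, edgeR, pseudocount 0.1, 0.0561), *Spock1* (basal 6, edgeR, 0.0311) and *Pthlh* (luminal 5 or 6, basal 6, edgeR, pseudocount 0.1, median ratios, 0.135). The difference became 2.04 for *Map3k15* without basal replicate 6.

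Against never-pregnant glands, where 12 libraries served as the reference, more genes were called. The gap had moved towards basal for 690 genes (4.04%) and towards luminal for 681 (3.99%), 8.03% in either direction, and without basal replicate 6 for 362 and 203. The balance of the directions depended on the scaling, with 499 and 889 when the milk protein genes were removed and 757 and 545 with median-ratio scaling. Lanes and amplification batches differ between these time points, and the M4 sorts also differ from each other in amplification batch. The luminal and basal libraries of a sort share both. The 5 largest shifts to basal were *Trpc6*, a calcium-permeable channel (6.88), *Xirp1*, an actin-binding muscle protein (6.68), *Notch3* (6.53), *Heyl*, a Notch target gene (6.36), and *Insc* (5.97). *Xirp1* was at 3.59, 1.67 and 1.04 CPM in luminal and 249 and 385 CPM in basal libraries at L10, against 4.24 ± 0.749 and 3.25 ± 2.25 CPM (SD, n = 3) at W10. *Heyl* was at 7.45, 4.57 and 6.56 and 312 and 293 CPM at L10, and its gap before pregnancy was -0.94. Both genes thus had no basal excess in never-pregnant glands.

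Of 37 contraction receptors and effectors 15 were called for a shift to basal against never-pregnant glands and 3 for a shift to luminal, beside 4.04% and 3.99% of all genes. The adrenoceptors other than *Adra2a* averaged under 2 CPM in both layers at W10 and at M4. Called by edgeR were 8 and 1. Without basal replicate 6 the counts were 4 and 0. *Adra1b* (4.50), *Adra1d* (3.35), *Adra2a* (3.06), *Adra2b* (2.18), *Adra2c* (1.90) and *Rgs5* (4.28) were among the 15. By edgeR the differences of *Adra1b* (4.88) and *Adra2c* (3.91) were larger than by limma, and those of *Adra1d* (2.49) and *Adra2b* (0.96) smaller. Fewer genes of the list were called by edgeR. *Oxtr* was not among the 15, and its gap before pregnancy was 5.35. The 3 shifts to luminal were *Itpr2* (-1.84), *Lpar2* (-2.95) and *Lpar3* (-1.85). Of 31 contractile genes 4 passed, all towards basal: *Myocd* (4.94), the intermediate filament gene *Des* (4.71), and the myosin phosphatase subunits *Ppp1r12b* (4.37) and *Ppp1r12a* (1.50). *Des* was at 606 and 863 CPM in basal libraries at L10 and 3.54 ± 1.46 CPM (SD, n = 3) at W10. Of the 9 pericyte and vascular muscle markers 6 passed, all towards basal, and the summed basal level of that list moved with these genes between the time points (above). Their part in these shifts was not tested. With edgeR 1 contractile gene and 3 pericyte markers passed, without basal replicate 6 there were 3 of each. Among adhesion genes *Itga7* (3.93), *Itgb3* (3.46), *Lims2* (3.21) and *Lims1* (1.40) shifted to basal, as did *Cdh6* (3.82), *Lamb2* (1.93), *Grb10* (3.37), *Igfbp6* (3.12) and *Zeb2* (3.84). *Lep* (5.67) and *Plin1* (3.78) did so too. *Igfbp6* moved the other way in edgeR (-0.70). With a library left out or under another setting the call of a difference was lost for *Adra2a* (luminal 4 or 6, basal 6, 0.196), *Adra1b* (edgeR, 1), *Adra1d* (basal 6, edgeR, pseudocount 0.1, 0.983), *Adra2b* (luminal 4, 5 or 6, basal 5 or 6, edgeR, pseudocount 0.1, milk genes removed, 0.89), *Adra2c* (basal 5, edgeR, pseudocount 0.1, 0.0781), *Rgs5* (basal 6, 0.0212), *Itpr2* (basal 6, 0.0635), *Lpar2* (basal 6, edgeR, 0.0606), *Lpar3* (basal 6, edgeR, 0.0498), *Myocd* (edgeR, pseudocount 0.1, 0.294), *Des* (edgeR, pseudocount 0.1, 0.28), *Ppp1r12a* (luminal 4, basal 5 or 6, edgeR, pseudocount 0.1, milk genes removed, 0.101), *Itga7* (edgeR, 0.0256), *Itgb3* (basal 6, 0.0162), *Lims2* (luminal 4 or 6, basal 5 or 6, edgeR, pseudocount 0.1, milk genes removed, 0.842), *Cdh6* (edgeR, pseudocount 0.1, 0.754), *Lamb2* (luminal 4, basal 6, 0.051), *Igfbp6* (luminal 4 or 5, basal 5 or 6, edgeR, pseudocount 0.1, milk genes removed, 0.722), *Zeb2* (luminal 4, basal 5 or 6, edgeR, pseudocount 0.1, milk genes removed, 0.0793), *Lep* (edgeR, 0.99) and *Plin1* (edgeR, 0.0656). Moved values of the difference were 1.80 for *Adra2a* without basal replicate 6, 2.22 for *Adra1d* without basal replicate 6, 1.22 for *Adra2c* without basal replicate 5 and -1.87 for *Lpar2* without basal replicate 6. With edgeR the difference was smaller for *Cdh6* (0.65), *Lims2* (0.73), *Des* (2.51), *Lep* (2.61) and *Myocd* (3.00). It was larger in size for *Plin1* (8.21) and *Lpar3* (-4.24).

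Towards luminal, the 5 largest shifts were those of *Emb*, a carrier-associated membrane protein (-6.29), *Fbln1*, a matrix protein (-5.88), *Pappa*, a protease of IGF-binding proteins (-5.80), *Tox* (-5.74) and *Slc14a1*, a urea transporter (-5.44). *Emb* was at 59.3, 148 and 86.9 CPM in luminal and 12.3 and 9.12 CPM in basal libraries at L10, whereas its gap was basal before pregnancy (3.29). *Pappa* (-1.29 at L10) and *Slc14a1* (-2.14, called with the sort as a block at an adjusted p of 0.00787, and without luminal replicate 4 or 6 or basal replicate 5 at up to 0.0089) were not called between the layers at L10, and *Slc14a1* was high in luminal replicate 5 alone (2.79, 43.5 and 3.02 CPM). Of 18 basal identity genes 2 passed, both towards luminal, beside 3.99% of all genes called in that direction. They were *Krt14* with -4.43 (SE 0.85, adjusted p = 0.00032) and *Krt17* with -3.42 (SE 0.88, adjusted p = 0.0062). With the sort as a block 5 of the 18 passed, with edgeR 3 and without basal replicate 6 only 1. Without luminal replicate 5 the *Krt14* value was -3.77 (adjusted p = 0.00256). Of 18 amino acid and ion carriers 4 passed, all towards luminal (1 without basal replicate 6). They were *Slc7a5* (-3.47), *Slc39a8* (-4.93), *Slc1a3* and *Slc38a3*, whose gaps before pregnancy were 0.96, 2.00, 3.10 and 0.29. *Olah* (-3.69), *Fasn* (-2.35), *Acaca* (-2.14), *Plin2* (-2.05) and *Acsl4* (-1.90) were the 5 of 29 fat synthesis genes that passed (4 with edgeR, 1 without basal replicate 6), and *Mid1ip1* (1.93) passed in the other direction. Among milk protein genes *Trf* (-2.57) and *Lcn2* (-2.38) passed (neither with edgeR, and 63.5% of the *Trf* exon bases are shared with another gene), and *Csn2* did not (-0.80, SE 1.11, adjusted p = 0.69), its gap before pregnancy being -3.78. *Hk2* (-3.19), *Mvd* (-2.64), *Ebp* (-1.55), *Epcam* (-2.86), *Ehf* (-2.74) and *Klf5* (-3.05) also shifted to luminal. With a library left out or under another setting the call of a difference was lost for *Krt17* (luminal 5 or 6, basal 5 or 6, pseudocount 0.1, 0.0566), *Slc39a8* (basal 6, 0.0178), *Olah* (luminal 5, basal 6, edgeR, pseudocount 0.1, 0.0842), *Fasn* (luminal 4, 5 or 6, basal 5 or 6, pseudocount 0.1, median ratios, 0.0481), *Acaca* (luminal 5 or 6, basal 5 or 6, 0.024), *Plin2* (luminal 6, basal 6, 0.0445), *Mid1ip1* (luminal 4 or 6, basal 5 or 6, edgeR, pseudocount 0.1, milk genes removed, 0.0717), *Trf* (luminal 4, 5 or 6, basal 6, edgeR, pseudocount 0.1, median ratios, 0.13), *Lcn2* (luminal 4, 5 or 6, basal 6, edgeR, median ratios, 0.133), *Hk2* (basal 6, 0.032), *Mvd* (basal 6, 0.0508), *Ebp* (luminal 6, basal 6, 0.0485), *Epcam* (basal 6, 0.0709), *Ehf* (basal 6, 0.06) and *Klf5* (basal 6, 0.0555). The difference became -1.85 for *Epcam* without basal replicate 6.

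**Figure D5:**
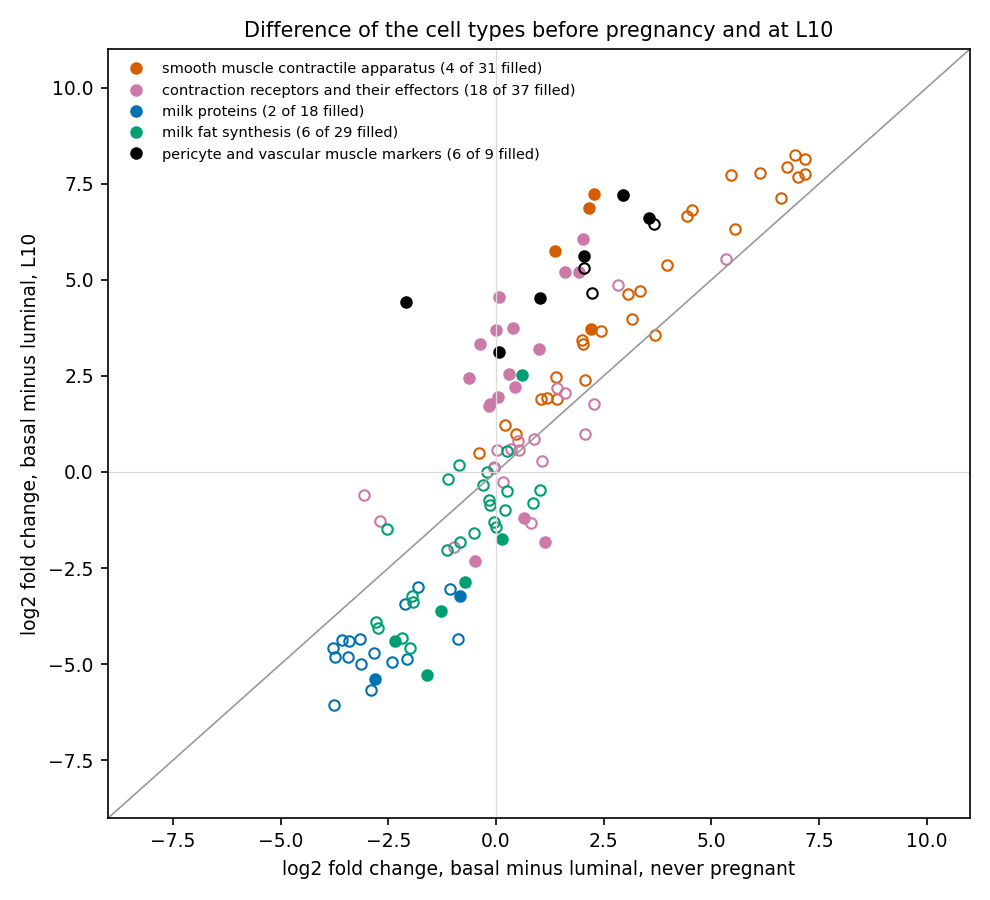
Log2 fold change, basal minus luminal, before pregnancy (horizontal, mean of W10 and M4) and at L10 (vertical) for the members of the contractile, contraction receptor, milk protein, milk fat and pericyte lists. Each point is a gene, filled where the difference of the 2 gaps was called, and the diagonal marks equal gaps. Filled points of the contraction receptor list lie above the diagonal, such as *Adra1b* (0.06 before pregnancy and 4.57 at L10), except *Itpr2*, *Lpar2* and *Lpar3*. *Rgs5* is on both the receptor and the pericyte list and is drawn in black.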

How the data were processed

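Sorted basal and luminal cells of FVB/N mice were profiled by RNA-seq after RNA amplification (Ovation V2). Per the study's methods and the submitters' processing notes, reads were aligned with GSNAP to NCBI build 37.1 (mm9), counted per gene with htseq-count, and genes with few reads were removed with edgeR. Per the study's methods, genes with very many reads that varied little between samples were removed as well. The deposited signal values are gene read counts that the authors divided by the edgeR effective library size, on a CPM scale. In all 46 libraries the values are whole multiples of a step that is worth 1 read (tolerance 0.01 reads, 100% of values). For edgeR the reads were recovered from this step in 45 of them, and the remaining library is outside L10 and stayed out of that test. The sources used here do not state whether strand was used in counting, and overlapping exons can share reads.

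From these values log2(CPM + 1) was fitted with limma 3.58.1 (R 4.3.3) on all 46 libraries and 16 conditions, without covariates and with a mean-variance trend. Contrasts were basal minus luminal at L10 and its difference from L3 and from the mean of W10 and M4. Adjusted p-values are limma's, two-sided, by Benjamini-Hochberg over 17078 genes (16897 with a symbol). Tested on simulated data for the L10 comparison with all 17078 genes, the fit recovered 61% of genes changed by 2 and 99% of those changed by 3 on the log2 scale, with 2 false calls. The simulated counts had a single dispersion for all genes and no sort or library effects. Only genes above a minimum mean level were changed. These rates therefore do not give the power or the false calls of the comparison with the real spread. Basal and luminal libraries of one sort number come from the same sorted glands and are pairs per the labels. Their deviations from the condition means correlated by 0.0764 and 0.0600. With 2 basal libraries the basal deviations mirror each other, so these values are not independent and do not decide on the pairing. The sort as a block (limma duplicateCorrelation, 0.179) is an alternative to the unblocked fit of the study. Whether the glands of replicates are separate animals is given only as pools, so p-values measure the spread between pools.

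The 5 libraries follow from the labels, but the gene lists were chosen with earlier results of these data known, and 31 of the genes named were taken from the study, which chose them on these samples. Named are the 10 largest called differences without overlap in each direction, the 5 largest in each direction of each difference from another time point, the 2 largest called and 2 most abundant members of each list, members that make up counts of 5 or fewer, the sort antigens and those study genes. *Trp63*, *Wap*, *Srf*, *Itga6*, *Cd36* and other genes outside these rules were added after their values were seen. A few genes that fall under these rules are not reported here. Alternatives were edgeR 4.0.16, pseudocount 0.1, median-ratio scaling, removal of milk genes, a mean of at least 1 CPM, genes that vary across conditions (12139), FDR 0.05, only the time points compared, the sort block, the sort date as a block (added after seeing the data), and each L10 library left out. Promoters are from RefSeq (GRCm38.p6) and were matched by symbol.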

Additional observations from a re-analysis of the deposited data

Results flagged for a closer look

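For the genes below the gap between basal and luminal cells at L10 differed from that of another time point by limma's test of the difference itself, at the threshold of the report. Values are differences of the log2 fold change, L10 minus the other time point, positive towards basal.

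Against L3 these were *Lrrc73* (3.83), *Crhr2* (3.67), *Gm13033* (3.65), *Mmab* (3.54) and *Map3k15* (3.39) towards basal. Towards luminal they were *Plekhs1* (-4.99), *Cit* (-4.70), *Krt23* (-4.43), *Spock1* (-4.13) and *Pthlh* (-2.59).

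Against never-pregnant glands, the named genes called towards basal were *Trpc6* (6.88), *Xirp1* (6.68), *Notch3* (6.53), *Heyl* (6.36), *Insc* (5.97), *Myocd* (4.94), *Des* (4.71), *Ppp1r12b* (4.37), *Ppp1r12a* (1.50), *Adra1b* (4.50), *Adra1d* (3.35), *Adra2a* (3.06), *Adra2b* (2.18), *Adra2c* (1.90) and *Rgs5* (4.28). Others were *Itga7* (3.93), *Itgb3* (3.46), *Lims1* (1.40), *Lims2* (3.21), *Cdh6* (3.82), *Lamb2* (1.93), *Grb10* (3.37), *Igfbp6* (3.12), *Zeb2* (3.84), *Lep* (5.67), *Plin1* (3.78) and *Mid1ip1* (1.93).

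Called towards luminal were *Emb* (-6.29), *Fbln1* (-5.88), *Pappa* (-5.80), *Tox* (-5.74), *Slc14a1* (-5.44), the keratins *Krt14* (-4.43) and *Krt17* (-3.42), the carriers *Slc39a8* (-4.93) and *Slc7a5* (-3.47), and the fat and cholesterol genes *Olah* (-3.69), *Fasn* (-2.35), *Acaca* (-2.14), *Plin2* (-2.05), *Acsl4* (-1.90), *Mvd* (-2.64) and *Ebp* (-1.55). The others were *Hk2* (-3.19), *Trf* (-2.57), *Lcn2* (-2.38), *Epcam* (-2.86), *Ehf* (-2.74), *Klf5* (-3.05), *Itpr2* (-1.84), *Lpar2* (-2.95), *Lpar3* (-1.85), *Sec61a1* (-1.31), *Ssr2* (-1.54), *Ssr4* (-2.07), *Pdia4* (-1.72) and *Pdia6* (-1.40).

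Shifts to basal were also called for *Atp2a3* (3.63), *Cspg4* (3.06), *Gab2* (3.38) and *Hey1* (3.18), and shifts to luminal for *Cish* (-2.18), *Dsc2* (-3.29), *Grhl1* (-2.06), *Igfbp3* (-4.68), *Slc1a3* (-3.66) and *Slc38a3* (-3.20). With a library left out or under another setting the call of a difference was lost for *Atp2a3* (basal 6, 0.0169), *Cspg4* (luminal 4, basal 6, edgeR, pseudocount 0.1, milk genes removed, 0.312), *Hey1* (luminal 6, basal 5 or 6, edgeR, 0.0457), *Cish* (basal 6, 0.0787), *Dsc2* (basal 6, 0.0171), *Grhl1* (luminal 4, 5 or 6, basal 6, edgeR, median ratios, 0.547), *Slc1a3* (basal 6, 0.0205) and *Slc38a3* (basal 6, 0.0164). Moved values of the difference were -2.13 for *Dsc2* without basal replicate 6, -3.52 for *Grhl1* without basal replicate 5 and -0.60 for *Grhl1* without basal replicate 6. With edgeR the difference of *Cspg4* was 1.55.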

How the results depend on the processing

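Counts are given as basal and luminal calls. For L10 (2354 and 1863), a fit to the L10 libraries alone gave 397 and 159, and leaving out a library gave 1557 to 2366 and 989 to 1873. No alternative called a main call in the opposite direction, and 2290 of the 4217 calls were kept without basal replicate 6. The difference from L3 (18 and 48) gave 6 basal calls with a pseudocount of 0.1, 6 and 21 with edgeR, 59 and 118 with the sort block, 29 and 108 with the block and luminal replicate 4 left out (added after seeing the data), 47 and 95 with the sort date as the block (added likewise), 106 and 218 at FDR 0.05, 0 and 0 with L3 and L10 libraries alone, and 7 to 156 and 5 to 301 with a library left out. The difference from never-pregnant glands (690 and 681) gave 422 basal calls with a pseudocount of 0.1, 375 with edgeR, 1154 and 1361 at FDR 0.05, and 362 to 795 and 203 to 911 with a library left out. A fit to the L10 and never-pregnant libraries alone gave 695 and 569 for that difference. It ended 9 of the 67 such calls of named genes, which the losses listed for single genes do not cover. These were *Acaca*, *Adra2a*, *Ebp*, *Grhl1*, *Mid1ip1*, *Mvd*, *Pdia6*, *Ssr2* and *Ssr4* (limma, adjusted p up to 0.039). Of the named genes the block changed the call of 5, all at L10 and given beside their values.

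Genes that changed direction at L10 were not called, and over the libraries left out in turn they ran from -0.41 to 1.05 (*Dsp*, below 0 without luminal replicate 4, also with the block), -0.41 to 0.11 (*Insr*, above 0 without luminal replicate 5 or 6), -1.90 to 0.82 (*Itgam*, luminal 5 or basal 6), -0.44 to 1.28 (*Krt23*, luminal 4, where the block gave -0.22, or basal 5), -0.88 to 0.67 (*Pdgfra*, luminal or basal 6), -0.80 to 0.42 (*Pthlh*, basal 6), -0.25 to 0.96 (*Ptprc*, luminal 6 or basal 5), -1.29 to 1.71 (*Alas2*, basal 5), -0.0607 to 0.0672 (*Slc38a2*, luminal 4, where the block gave -0.0136, luminal 6 or basal 5), -1.85 to 0.205 (*Lyz2*, basal 6) and -1.31 to 0.202 (*Slc1a3*, basal 6). *Dsp* was also -0.012 with milk genes removed and -0.077 with edgeR, *Itga6* -0.24 and *Slc38a2* -0.37 with milk genes removed, and *Alas2* -0.86 with a pseudocount of 0.1. The difference of *Igfbp6* from never-pregnant glands, called in limma, was -0.70 with edgeR. The causes were not tested. Depth, the number of L10 libraries and the scaling may each limit these results, and their parts were not compared.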

Other observations

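Of 30 secretory pathway genes 5 were called for a shift towards luminal cells against never-pregnant glands, none towards basal, beside 3.99% of all genes called towards luminal. They were *Sec61a1* (-1.31), *Ssr2* (-1.54), *Ssr4* (-2.07), *Pdia4* (-1.72) and *Pdia6* (-1.40). With edgeR 4 of the list were called and without basal replicate 6 only 1. With a library left out or under another setting the call of a difference was lost for *Sec61a1* (basal 5, 0.03), *Ssr2* (luminal 4 or 6, basal 5 or 6, pseudocount 0.1, median ratios, 0.0617), *Ssr4* (luminal 6, basal 6, edgeR, 0.224), *Pdia4* (basal 6, 0.0609) and *Pdia6* (luminal 4 or 6, basal 6, median ratios, 0.111). The difference became -1.10 for *Ssr4* without basal replicate 6. *Sec61a1*, the channel through which new proteins enter the endoplasmic reticulum, was at 354, 243 and 268 CPM in luminal and 83.9 and 128 CPM in basal libraries at L10 (-1.45 ± 0.24 SE, adjusted p = 9.2e-06). The disulphide isomerases *Pdia4* (-1.58 at L10) and *Pdia6* (-1.66) and the translocon-associated subunit *Ssr2* (-1.97) were called luminal at L10 as well. Amino acid carriers differed among themselves. *Slc38a1* was at 33.5, 18.7 and 23.5 CPM in luminal and 1.14 and 0 CPM in basal libraries (-4.13 ± 0.56 SE, adjusted p = 2.6e-07) and *Slc38a3* at 8.78, 5.65 and 13.4 and 0.699 and 0 CPM (-2.91 ± 0.54 SE, adjusted p = 3.9e-05), whereas *Slc38a2* was at 398, 425 and 399.9 and 427 and 391 CPM (0.00 ± 0.34 SE, adjusted p = 1). *Slc1a3*, a glutamate carrier, was not called at L10 (-0.56 ± 0.58 SE, adjusted p = 0.5). Without basal replicate 6 the L10 call of *Pdia4* was lost (adjusted p = 0.0259).

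Of the transcription factors, *Grhl1*, a factor of epithelial junctions, was luminal (-4.50 ± 0.47 SE, adjusted p = 1.8e-09), as was the desmosomal cadherin *Dsc2* (-3.62 ± 0.47 SE, adjusted p = 1.3e-07). The Notch target *Hey1* was at 10.8, 12.5 and 3.11 CPM in luminal and 34.3 and 36.6 CPM in basal libraries and was not called at L10 (2.07 ± 0.68 SE, adjusted p = 0.016), though with the sort as a block it was (adjusted p = 0.00696). *Cspg4*, a pericyte marker also known as NG2, was at 2.66, 9.06 and 5.70 and 511 and 734 CPM (6.61 ± 0.61 SE, adjusted p = 1.4e-10). The calcium pump *Atp2a3* was basal (2.69 ± 0.67 SE, adjusted p = 0.0015). *Cish*, a target and inhibitor of STAT5 signalling (-1.09 ± 0.39 SE, adjusted p = 0.027, but called luminal with milk genes removed, -1.44 and adjusted p = 0.00306, and without basal replicate 5, -1.79 and 0.0025), the adaptor *Gab2* (0.92 ± 0.48 SE, adjusted p = 0.13) and *Igfbp3* (1.57 ± 0.58 SE, adjusted p = 0.03, and 0.00147 without luminal replicate 5) were not called between the layers at L10. Of the markers of other cells, *Col3a1* (2.94 ± 1.44 SE, adjusted p = 0.11), *Cd3e* (-1.34 ± 0.83 SE, adjusted p = 0.22, and 0.00376 with the sort as a block and luminal replicate 4 left out), *Lyz2* (-0.82 ± 0.80 SE, adjusted p = 0.46) and *Alas2* (0.21 ± 0.61 SE, adjusted p = 0.83) were not called. *Cd3e*, a T cell gene, was at 7.72, 158 and 69.6 CPM in luminal libraries, highest in replicate 5, and 17.9 and 16.4 CPM in basal libraries. The call of *Atp2a3* was lost without basal replicate 5 or basal replicate 6 (adjusted p up to 0.0224).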
